A study of Bos taurus with 2 samples.

Results

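*ATF4*, *ATF3*, *ATF5*, *DDIT3* (which encodes CHOP), *CEBPB*, *CEBPG* and *TRIB3* encode the transcription factors ATF4 and CHOP, bZIP proteins that pair with them or act beside them, and the pseudokinase TRIB3, which binds both. These 7 genes were followed in the longissimus thoracis (LT) muscle of bovine fetuses, on an array that gave a fold for 19554 genes. A probe without a matched symbol was counted under its own identifier as a gene. Only 12603 symbols were matched, so the 19554 are entries, and a gene can stand in more than 1. Shares and ranks among all genes below are among these entries. The genes were chosen by name with earlier results of these same arrays known, so their own differences between the groups are given as a description. The probes were found through the transcript accession that the array design gives each probe. That gave 14 probes for 6 of the 7 genes, and no probe was matched to *ATF5*. All 14 probes were well above background on both arrays, so no gene entered the comparison through 1 group alone.

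The animals were Japanese Black cattle, and the question put to them was how undernutrition of the dam throughout gestation alters the muscle of the fetus. Dams of the high-nutrition (HN) group were fed 120% of the recommended nutritional level and dams of the low-nutrition (LN) group 60%, and LT muscle was taken at 8.5 months of gestation. Total RNA of the 4 HN fetuses with the highest body weight (BW) was pooled on 1 array, and that of the 4 LN fetuses with the lowest BW on another array of the same slide. Diet and the selection by BW therefore cannot be told apart, the spread between fetuses is not measured, and no test between the groups was possible.

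When a cell lacks amino acids, accumulates unfolded protein in the endoplasmic reticulum, lacks haem or meets double-stranded RNA, a kinase specific to that signal phosphorylates the initiation factor eIF2alpha. General translation then falls, while the *ATF4* mRNA is translated more efficiently because of short upstream reading frames in its leader. ATF4 binds DNA as a dimer, often with a C/EBP protein, and drives genes for amino acid synthesis and uptake as well as *DDIT3* and *TRIB3*, while TRIB3 in turn restrains ATF4 and CHOP. An array reads the amount of mRNA and not its translation or the protein.

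Each value below is the background-corrected signal of a probe or its log2 after quantile normalization, and log2 LN/HN is the difference of the normalized log2 values. The error of a probe is the one the scanner software estimated for its signals, about 10.0% for bright spots, carried into the ratio. It covers the measurement of the 2 arrays only. The error of a mean over the probes of a gene takes these errors as independent. It does not measure the spread between the probes. A spot's log2 ratio had an SD of 0.0854 among the 42 probes printed several times, and the probes of 1 gene had a median SD of 0.0995 over 7139 genes. Genes were counted when log2 LN/HN was past 0.32 or below -0.32, called past the threshold below. Over all genes, 8.85% were higher and 9.11% lower past it, and each list count below stands against these shares. Skeletal muscle markers were bright (log2 13.60 to 18.35 on the HN array) in 8 of 9 listed genes, and the ninth had no matched probe.

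Among the 6 genes measured, *TRIB3*, *CEBPG* and *DDIT3* were higher in the LN pool past the threshold, as were 8.85% of all genes, and *ATF3* was lower, as were 9.11% of all genes. *CEBPG* and *TRIB3* passed 2-fold, which 0.711% of all genes did in that direction. For *TRIB3* this is a mean over probes that disagreed in direction, and the count of 2 was 0 with normexp background correction and 1 with the 75th percentile or the authors' normalized values. *ATF4* itself and *CEBPB* lay within the threshold. The median log2 LN/HN of the 6 genes was 0.57, beside -0.0033 over all genes. Nothing is read from these shares, because the same comparison was in view when the genes were chosen. By probe, 8 of 14 were higher by over 2 errors, as were 3.8% of the 30639 probes measured on both arrays, 1 was lower, as were 3.69%, and 5 lay within 2 errors. In whole tissue, fewer cells of a type and less RNA per cell cannot be told apart.

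**Figure D1:**
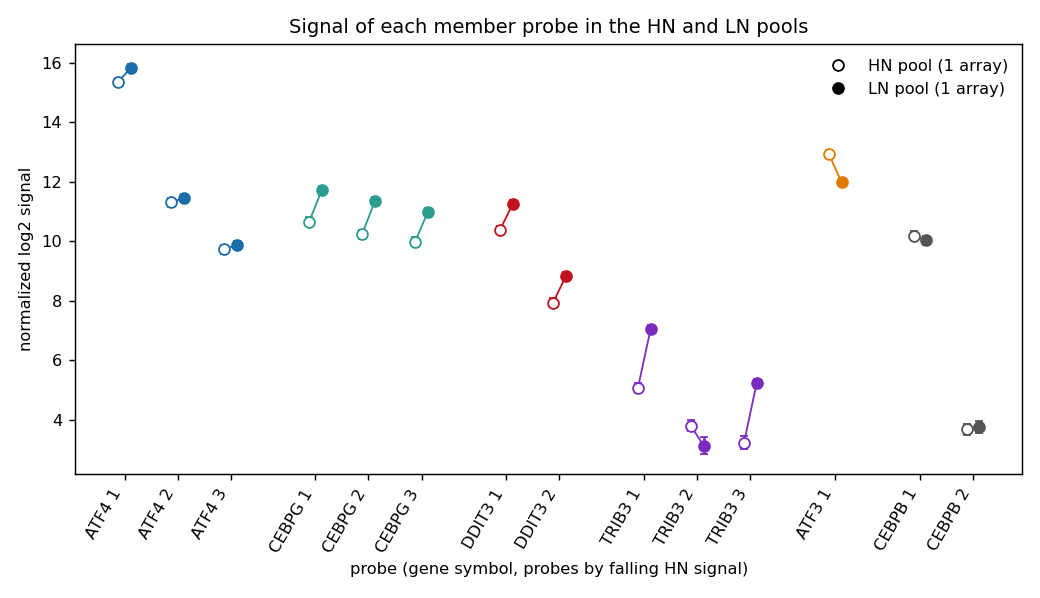
Normalized log2 signal of each of the 14 probes on the HN and the LN array, by gene, with the software's error as bars. The 3 *CEBPG* and 2 *DDIT3* probes lie higher in LN, the *ATF3* probe lies lower, and the 3 *TRIB3* probes do not share a direction.

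*ATF4*, the factor at the centre of the response, has 3 probes, all matched to NM_001034342. The brightest read 42138 in HN and 57467 in LN, which was log2 15.36 and 15.83 after normalization. Its difference of 0.47 ± 0.20, 1.39-fold, exceeded 2 errors. The second probe read 2499 in HN and 2848 in LN, a log2 difference of 0.14 ± 0.20. The third read 838 and 958, a log2 difference of 0.15 ± 0.20. All 3 were higher in LN, but only the brightest did so beyond the error of the measurement. The mean of the 3 was 0.26 ± 0.12, 1.19-fold, and 12.5% of all genes were as high or higher.

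*CEBPG*, a C/EBP protein without a classical activation domain that dimerises with ATF4, had 3 probes on NM_001034801 that were all higher in LN by a like amount. The first read 1587 in HN and 3413 in LN, and log2 went from 10.66 to 11.71, a difference of 1.06 ± 0.20. The second read 1185 and 2645, a difference of 1.11 ± 0.20. The third read 999 and 2062, a difference of 1.00 ± 0.20. Each was more than 2 errors from 0, and the 3 differences lay within their errors of each other. The mean was 1.06 ± 0.12, 2.08-fold, and *CEBPG* stood 110th from the top of 19554 genes.

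*DDIT3*, whose product CHOP dimerises with other C/EBP proteins and is known for its role in cell death under lasting stress, had 2 probes on NM_001078163. The brighter read 1309 in HN and 2471 in LN, a log2 difference of 0.87 ± 0.20. The dimmer read 243 and 457, a log2 difference of 0.88 ± 0.20. Both probes were thus higher in LN by the same amount within error, although their signals lie at different brightness. The mean was 0.87 ± 0.14, 1.83-fold, and *DDIT3* stood 227th from the top.

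*TRIB3*, the feedback inhibitor, had 3 probes on NM_001076103, each well above background on both arrays, that disagreed. Probe A_73_P034726 read 34.1 ± 3.65 in HN and 133 ± 13.4 in LN, and log2 went from 5.07 to 7.05, a difference of 1.98 ± 0.21. Probe A_73_P306106 read 9.78 ± 1.49 in HN and 36.8 ± 3.93 in LN, and log2 went from 3.22 to 5.23, a difference of 2.01 ± 0.27. These probes were 3.95-fold and 4.02-fold higher in LN, and ranked 4th and 3rd of 30639 probes measured on both arrays. The remaining probe, A_73_P365636, read 14.4 ± 1.86 in HN and 8.34 ± 1.70 in LN, and its difference of -0.66 ± 0.35 was 1.90 errors from 0. The mean of 1.11 ± 0.16, 2.16-fold, therefore joins probes of opposite direction and describes none of them. With normexp background correction the 3 probes were at 1.07, 0.58 and -0.09, in the order given above. Among probes of like brightness the ratio itself spread widely: the middle 95% of 2992 probes at log2 3 to 4 ran from -0.72 to 0.92, and that of 3490 probes at log2 6 to 7 from -0.50 to 0.48. The falling probe lay inside the first range. Where the 3 probes sit on the transcript was not analysed here.

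The primers designed on NM_001076103.1 for qRT-PCR of *TRIB3* are shown because they mark the transcript to which each of the disagreeing probes is matched. No qRT-PCR value was used here. Both are written 5′ to 3′ and have 22 bases.
TRIB3 forward: aagctaaggcgcttcgtcttca
TRIB3 reverse: cagtcagcacacaggcatcttc

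**Figure D2:**
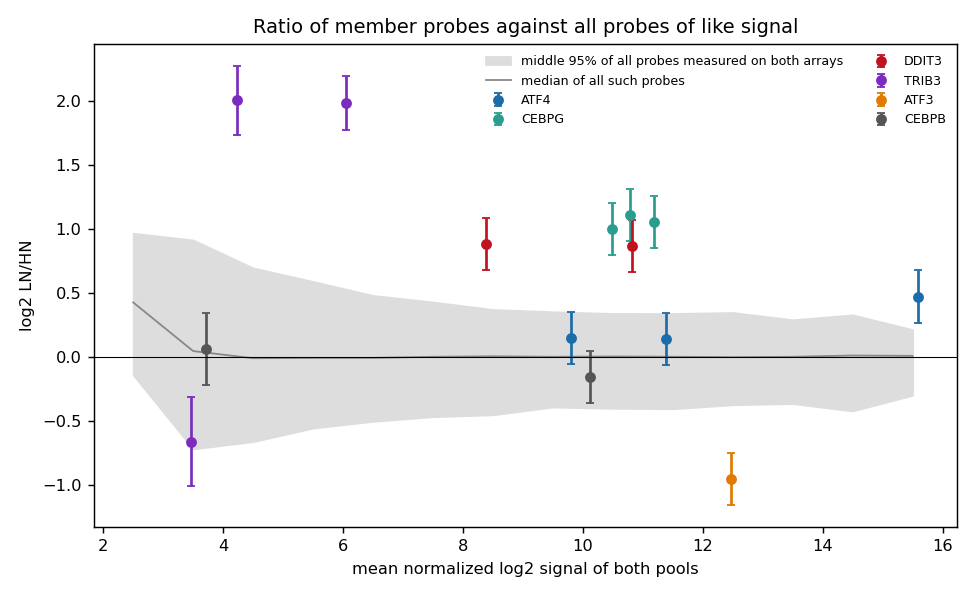
Log2 LN/HN of the 14 probes against mean normalized log2 signal, with the band holding the middle 95% of all probes in each 1-unit bin of signal. The last bin holds all probes from log2 15 up. The band is widest at log2 3 to 4 and narrower in the dimmest bin and toward bright signals. The *CEBPG* and *DDIT3* probes, 2 of 3 *TRIB3* probes and the brightest *ATF4* probe lie above it, and the *ATF3* probe below it.

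*ATF3*, a repressor of the ATF/CREB family that many stresses and serum induce as an early gene, was the only one of the 6 measured genes lower in LN past the threshold. Its only probe, on NM_001046193, read 7758 in HN and 4125 in LN, and log2 went from 12.94 to 11.99, a difference of -0.95 ± 0.20. It was 1.93-fold lower and stood 74th from the bottom of 19554 genes, with a direction opposite to that of *DDIT3* and *CEBPG*. A single probe gives no second reading of this difference.

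*CEBPB*, a C/EBP factor of inflammation and of fat and muscle cell differentiation, had 2 probes on NM_176788. The brighter read 1146 in HN and 1067 in LN, a log2 difference of -0.15 ± 0.20. The dimmer read 13.5 ± 1.76 and 12.9 ± 1.89, a log2 difference of 0.07 ± 0.28 after quantile normalization and -0.06 without normalization. Neither differed beyond its error, and their mean was -0.04 ± 0.17.

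Upstream of ATF4, the list of eIF2alpha kinases, phosphatase subunits and eIF2B subunits gave values for 16 of 20 genes. Past the threshold, 1 was higher and 1 lower (6.25% each, beside 8.85% and 9.11% of all genes). The median log2 LN/HN was 0.08. Of the 3 kinases measured, 1 passed the threshold, through a dim probe, and it lost that call under 4 of the 12 other ways of processing. *EIF2AK3*, the kinase that senses unfolded protein, had a mean of 0.15 over 3 probes that ran from -0.04 to 0.31. *EIF2AK2*, activated by double-stranded RNA, was at 0.05, and no probe was matched to *EIF2AK4*, which senses uncharged tRNA. *EIF2AK1*, the haem-regulated kinase, averaged 0.39 (0.29 with the 75th percentile, 0.31 with cyclic loess, 0.02 with normexp), from a bright probe at 0.0035 and a dim one at 0.77 ± 0.37. *PPP1R15A*, which brings the phosphatase back to eIF2alpha and is itself an ATF4 and CHOP target, averaged -0.65: one probe was at -0.36 ± 0.20, and the other, not well above background in LN, was at least 1.91-fold lower. It thus lay on the side opposite to *DDIT3*, and with normexp background correction it was at -0.15, and no gene of the list then passed the threshold in either direction. No probe was matched to the constitutive subunit *PPP1R15B*.

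Of 45 other bZIP factors, 31 had a value, of which 1 (3.23%) was higher and 4 (12.9%) were lower past the threshold, with a median of -0.04. Over the other ways of processing the number higher ran from 1 to 4 and the number lower from 2 to 6. *NFE2*, a factor of the erythroid and megakaryocyte lines, was higher at 0.67 ± 0.21, and at 0.39 with normexp background correction. *CREM*, a cAMP-responsive factor, was lower on both its detected probes, at -0.49 and -0.78, and *NFE2L3* and *JUND* were at -0.45 and -0.44. With normexp *NFE2L3* was within the threshold, at -0.16. *MAF* was the other lower gene, at -0.36, and was named after its value was seen. The AP-1 gene *JUN*, induced with *ATF3* in many early responses, averaged -0.31 over 3 probes from -0.35 to -0.27, whereas its partner *FOS* averaged 0.10. *CEBPA* was at -0.04, *CEBPD* at -0.09, *NFE2L2* at 0.14 and *XBP1*, the factor of the IRE1 branch, at 0.13, and no probe was matched to *ATF6*.

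The list of tribbles relatives and of partners of ATF4, CHOP or TRIB3 gave values for 9 of 12 genes. Past the threshold, 1 was higher and 1 lower (11.1% each, beside 8.85% and 9.11% of all genes). *TRIB1*, a tribbles protein that promotes degradation of C/EBP proteins, was lower on both probes (-0.44 and -0.30). With normexp background correction its mean was within the threshold, at -0.23, and none of the 9 genes was lower past it. *TRIB2*, its closest relative, was at -0.02 over 5 probes that ran from -0.12 to 0.12. *EGLN3*, a prolyl hydroxylase, was higher at 0.85 ± 0.21, and at 0.33 with normexp background correction.

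Downstream, 33 of 40 listed ATF4 and CHOP target genes had a value. Of these, 19 (57.6%) were past the threshold higher in LN and 1 (3.03%) lower, beside 8.85% and 9.11% of all genes. Past 2-fold higher were 9, beside 0.711% of all genes, and the median was 0.38. Earlier results of these arrays had already shown several of these targets, so the count is a description. *PHGDH* and *PSPH* catalyse steps of serine synthesis, and *PHGDH* went from log2 10.43 in HN to 11.92 in LN, a difference of 1.49 ± 0.20. *PSPH* differed by 1.71 ± 0.20 on one probe and 1.35 ± 0.23 on the other. *MTHFD2* and *ALDH1L2*, enzymes of mitochondrial one-carbon metabolism, were dim and differed by 1.60 ± 0.24 and 1.36 ± 0.29. *SLC7A5*, the light chain of a neutral amino acid transporter, differed by 1.58 ± 0.20 and 1.17 ± 0.37 on its detected probes. With no filter on dim probes, which adds probes that were not detected, *SLC7A5* averaged 0.92 and *ALDH1L2* 0.79. With normexp background correction, whose offset shrinks the ratios of dim probes, *MTHFD2* was at 0.40, *ALDH1L2* at 0.20, *SLC7A5* at 0.65 and *PSPH* at 0.91. *DDIT4*, an inhibitor of mTORC1 that also responds to hypoxia and glucocorticoids, was the only gene of this list lower past the threshold: both of its probes were lower in LN, at -0.49 and -0.52. *PPP1R15A*, described above and counted in another list, is a target too and was lower. Values of single targets more closely tied to CHOP, named after they were seen, were 0.64 for *CHAC1*, 0.17 for *ERO1A* and -0.13 for *BCL2L11*.

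The ATF6 and IRE1 branch of the unfolded protein response, which raises chaperones of the endoplasmic reticulum, gave values for 19 of 20 genes. Past the threshold, 2 were higher (10.5%, beside 8.85% of all genes) and none of the 19 was lower. The median was 0.11, beside 0.38 for the ATF4 and CHOP targets. The number higher ran from 0 (normexp) to 3 (cyclic loess) over the 12 other ways of processing. *SDF2L1* was higher at 0.50 ± 0.22, and at 0.15 with normexp background correction. *SYVN1*, named after its value was seen, averaged 0.61 from a bright probe at 0.0019 and a probe well above background on 1 array only. The chaperone *HSPA5*, also named afterwards, was at 0.15 over 4 probes from 0.06 to 0.24.

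**Figure D3:**
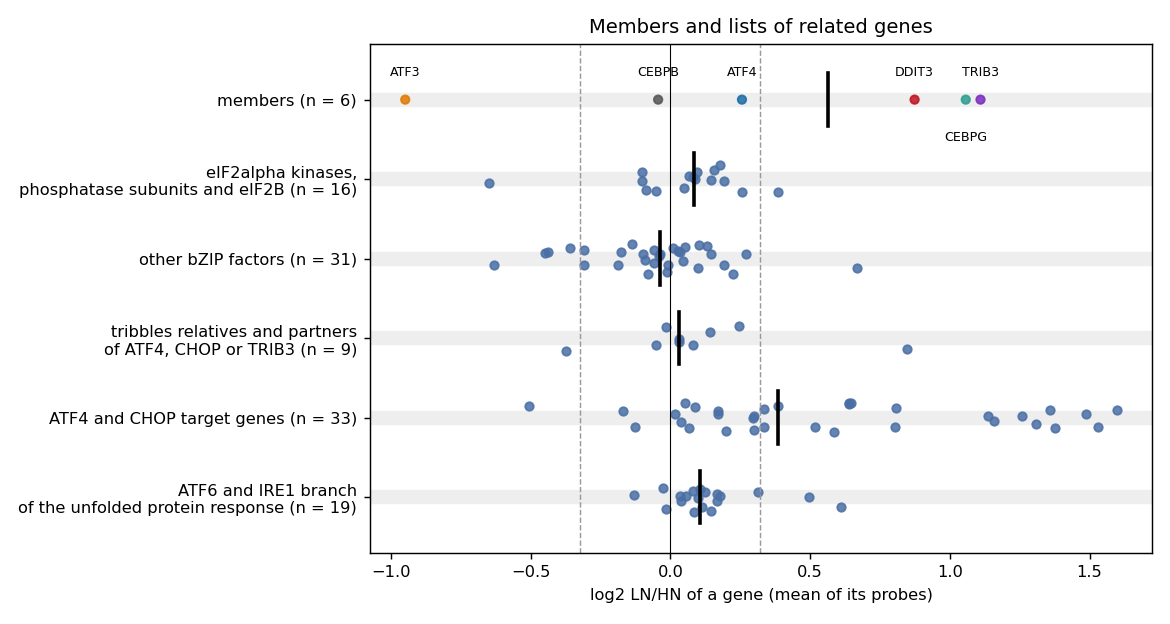
Log2 LN/HN of each gene with a value in the 5 pathway lists and of the 6 measured stress factor genes, with dashed lines at 0.32 and -0.32 and the median of each list as a black bar (height within a row and the grey strips carry no value). The target list has its median at 0.38, and the medians of the other 4 lists lie between -0.04 and 0.11.

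Marker lists of some other cell types also moved between the pools. Over all genes, 8.85% were higher and 9.11% lower past the threshold. Neutrophil markers were past the threshold higher in LN in 5 of 7 genes and lower in 1. *MPO*, among the higher, and *CXCR2*, the lower, were each dim on 1 array, and of the 5 genes measured on both arrays 4 were higher and 0 lower. Their summed level over the 7 genes went from log2 9.95 in HN to 10.79 in LN. Macrophage markers were lower in 3 of 7 genes and higher in none of them (13.22 to 12.90), and fibroblast markers were higher in 3 of 5 (16.48 to 16.83). Adipocyte markers were higher in 1 of 4, while none of 5 endothelial and 5 erythroid markers passed the threshold. Skeletal muscle markers had a median of -0.09, with 1 of 8 past the threshold higher and a summed level of 20.51 in HN and 20.48 in LN. *LEP* of adipocytes and *SLC4A1* of red cells were not well above background on either array. The part of these shifts in the differences of the stress factors and their targets was not tested.

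The differences of *CEBPG*, *DDIT3* and *ATF3* kept their side of the threshold under the other ways of processing tried. Of the 12, 5 (the dim-probe filters and the flagged spots) gave every measured member its reported value, since all 14 probes were well above background and none of their spots had an outlier flag. They are no check of these genes, and only 5 settings could move the single-probe *ATF3*, 6 *DDIT3* and 7 *CEBPG*. The gene value of *TRIB3* ran from 0.52 with normexp background correction to 2.06 in the authors' normalized values, which lack its falling probe, and was 1.98 as the median of its probes. *ATF4* passed the threshold only when its brightest probe stood for the gene.

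**Figure D4:**
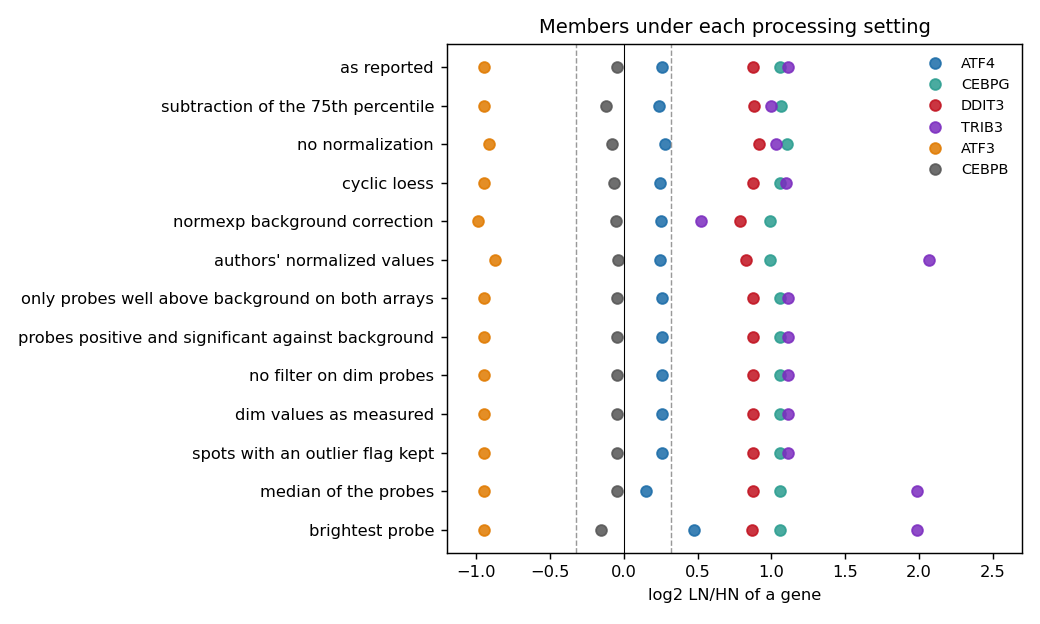
Log2 LN/HN of the 6 measured genes as reported (top row) and under each of 12 alternatives, with dashed lines at 0.32 and -0.32. *ATF3* stays between -0.99 and -0.87, *DDIT3* between 0.79 and 0.91 and *CEBPG* at 0.99 or above, whereas *TRIB3* runs from 0.52 to 2.06.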

How the data were processed

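Total RNA of LT muscle was labelled with Cy3 and hybridised to 2 Agilent Bovine (v2) 4x44K arrays of 1 slide, 1 per pool. The authors extracted spots with Feature Extraction 11.0.1.1 and deposited background-corrected intensities per spot, not normalized between arrays. The authors also deposited log2 values of 30027 probes, quantile-normalized in GeneSpring GX per their methods, and 13 of the 14 probes are among them.

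Log2 intensities of 43803 non-control spots were quantile-normalized with limma 3.58.1 in R 4.3.3, 13 spots with an outlier flag were removed, and spots of a probe were averaged. Of these spots, 74.5% in HN and 70.9% in LN were well above background, and 0 were saturated. A probe counted as detected when well above background on 1 or both arrays. For a probe dim on 1 array, that array's lowest detected level (log2 2.27 in HN, 2.82 in LN), or the probe's own level if higher, was used. A gene is the mean of its detected probes with a fold, and probes without a matched symbol were joined by their identifier. Python 3.11.15, numpy 2.4.6, pandas 2.3.3 and matplotlib 3.10.9 did the rest, and the steps were tested on simulated data.

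Accessions of 26742 probes matched a symbol in a RefSeq table of assembly ARS-UCD2.0. No coordinates are given, since the array was designed on another assembly, and promoters, proteins and probe sequences were not analysed here. The members and lists were chosen with earlier results of these data known. Named were every member with each probe, a set of kinases, phosphatase subunits and related factors, and in each pathway list up to 5 genes highest and 3 lowest past 0.32 on the log2 scale and measured on both arrays throughout. Other genes are said to be named after their values were seen. Median signals took the place of mean signals in the normexp alternative (offset 50), because the mean signal was not among the columns used. The number of arrays limits the precision.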

Additional observations from a re-analysis of the deposited data

How the results depend on the processing

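The counts and values were recomputed under 12 alternatives of scaling, background correction, dim-probe filter, flagged spots and the rule joining probes, of which 5 could not move the stress factors, whose probes are well above background and unflagged on both arrays. Of 588 values, 538 stayed within 0.17 on the log2 scale or, for counts, within 1.5 times, and 50 did not. Staying within these limits does not keep a value on its side of the threshold. No gene among those recomputed changed direction (the stress factors and the genes named by rule, not the neighbours or those named after their values were seen), while the medians of the bZIP and tribbles lists, near 0, changed sign under some settings. The number of genes past 2-fold higher, 2 as reported, was 1 after subtraction of the 75th percentile (*TRIB3* at 0.99), 0 after normexp background correction (*CEBPG* at 0.99, *TRIB3* at 0.52) and 1 with the authors' normalized values (*CEBPG* at 0.99). The median of the 6 genes, 0.57 as reported, was 0.39 after normexp and otherwise at most 0.67. The number higher past 0.32 on the log2 scale was 3 or 4, with *ATF4* as the fourth when the brightest probe was used (0.47), and the number lower was 1 throughout. After normexp the *TRIB3* probes were at 1.07, -0.09 and 0.58. The authors' values, at 2.06, lack its falling probe. Targets higher past that threshold numbered 13 to 23. *MTHFD2* ran from 0.40 to 1.66, *ALDH1L2* from 0.20 to 1.55, *SLC7A5* from 0.65 to 1.58, *EIF2AK1* from 0.0035 to 0.46 and *PPP1R15A* from -0.75 to -0.15. Dim probes are limited by background, whose median over 153 negative control spots was a signal of 1.24 in HN and 1.51 in LN. No paired analysis was possible because each group has 1 array, and no replicate could be left out.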

Other observations

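The genes next to the stress factors on the chromosome, in the order of the RefSeq table, mostly showed small differences. *NRSN2*, which follows *TRIB3*, was at 0.77 over 2 probes, and *RBCK1*, which precedes it, at 0.16 over 3 probes of which 1 was dim on an array. Beside *CEBPG*, *CEBPA* was at -0.04 and *PEPD* at -0.13. *NENF*, after *ATF3*, was higher at 0.33, the side opposite to *ATF3*. *RPS19BP1*, after *ATF4*, was at -0.02, and *PEDS1* and *PTPN1*, on either side of *CEBPB*, at -0.06 and 0.15. *NUP62*, before the unmeasured *ATF5*, was at 0.05. These are log2 LN/HN values of 1 array per pool, without a test.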
